A study of Mus musculus with 15 samples.

Results

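Glycam1, Emcn, Vwf, Selp, Sele, Chst4 and Ly6c1 are 7 genes that mark blood endothelium or, for Glycam1 and Chst4, the high endothelial venules (HEVs) of lymph nodes. They were followed by name through 15 libraries of sorted lymphatic endothelial cells, as a check for RNA of blood vessels in those libraries. The counts table held all 7 among its 21839 genes, and all 7 passed the filter on low counts.

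RNA was sequenced from lymphatic endothelial cells of C57bl/6 mice aged 10 weeks that carried a transplanted mouse melanoma line described as lymphangiogenic. The cells came from the tumor (Tumor), from the lymph node that drains it (TdLN) or from a non-draining node (NdLN), with 5 libraries in each group. All 3 groups were taken from tumor-bearing mice, so no group here represents a mouse without a tumor. Cells were sorted as lacking CD45 and carrying CD31 and gp38 (the products of Ptprc, Pecam1 and Pdpn), a gate that takes lymphatic endothelium and leaves out blood endothelium that lacks gp38. Whether each library stands for 1 animal or for several is not said in the labels, so p-values measure the spread between libraries. Whether counts of the 7 genes came from blood endothelial cells in the sort or from the lymphatic cells themselves was not tested.

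HEVs are the specialised blood vessels through which lymphocytes enter a lymph node. Their endothelium carries mucin-type proteins whose sugars, once fucosylated and sulfated, are bound by passing lymphocytes. Blood endothelium elsewhere stores von Willebrand factor and P-selectin in granules called Weibel-Palade bodies and displays E-selectin after exposure to inflammatory cytokines.

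Levels are given in CPM, the count of a gene scaled to the library's total and its TMM factor, and differences as log2 fold changes ± standard error from edgeR's quasi-likelihood test, called at an adjusted p under 0.05. Total counts were 23830337 to 37437282 per library. Prox1, the transcription factor that sets lymphatic identity, was at 105 ± 22.7 CPM in Tumor, 539 ± 74.9 in TdLN and 766 ± 52.9 in NdLN libraries (SD, n = 5). Pdpn was at 116 ± 46.4 CPM in Tumor, 120 ± 15.4 in TdLN and 124 ± 20.7 in NdLN libraries. Ptprc was at 1.68 ± 1.45 CPM in Tumor, 1.1 ± 0.943 in TdLN and 5.43 ± 3.77 in NdLN libraries. Markers of pigment cells, of which 10 of 11 were in the table, took 2.72 to 4.23% of counts in Tumor libraries, 0.00121 to 0.00334% in TdLN libraries and 0.00176 to 0.00367% in NdLN libraries. Pigment cell RNA thus moved with every difference between Tumor and node libraries, and its part in them was not tested.

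In Tumor libraries most of the 7 genes were lower than in either node. Against TdLN, 5 of the 7 fell, Ly6c1 rose and Vwf was not called (62% of the 13887 genes tested were called in this comparison, 30.1% as lower and 31.9% as higher). Against NdLN, 6 fell and Ly6c1 rose (66.5% of genes called, 32.5% as lower and 34% as higher). Glycam1 and Chst4 were among those that fell in both. They passed the filter on low counts through their node libraries, so a difference from Tumor was built into their being tested. The median log2 fold change of the 7 genes was -2.01 against TdLN and -2.60 against NdLN, beside 0.04 over all genes tested in both. These comparisons share the Tumor libraries, so the second does not repeat the first independently. In TdLN against NdLN, Emcn and Vwf fell and the other 5 were not called (3.49% of genes called, 1.64% as lower and 1.84% as higher), with a median of -1.05 beside -0.01 over all genes. Of the 484 genes called in TdLN against NdLN, 52.9% were higher in TdLN, against 63.5% of 518 when library totals alone set the scale. In bulk RNA, fewer cells of a type and less RNA per cell cannot be told apart, and this holds for every difference below.

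**Figure D1:**
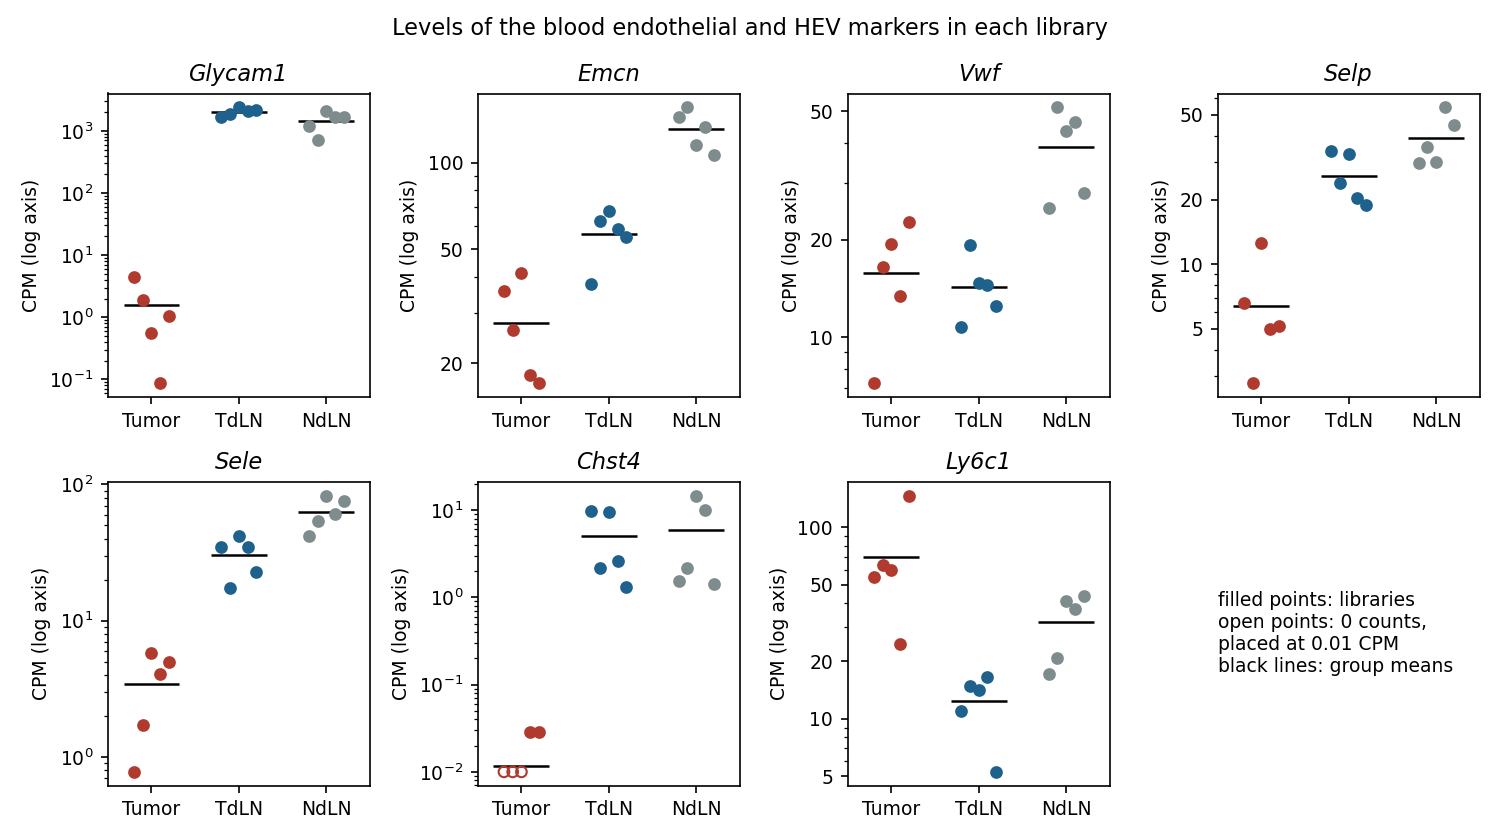
Level of each of the 7 genes in each library, as CPM on a log axis, for Tumor, TdLN and NdLN (5 libraries each); points are libraries, open points are libraries with 0 counts placed at 0.01 CPM, and black lines are group means. Glycam1, Selp, Sele and Chst4 are lower in every Tumor library than in any node library, while Ly6c1 is lowest in the TdLN libraries.

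**Figure D2:**
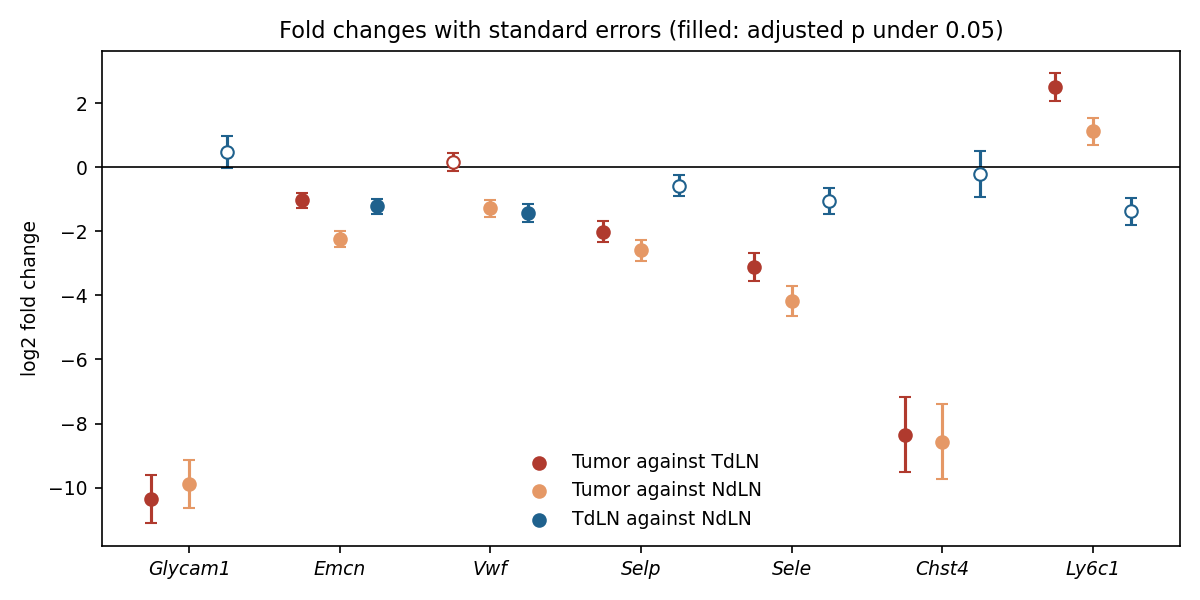
Log2 fold change of each gene in Tumor against TdLN, Tumor against NdLN and TdLN against NdLN, with bars of 1 standard error; filled points have an adjusted p under 0.05 in edgeR's quasi-likelihood test. Glycam1 and Chst4 have the lowest values in both Tumor comparisons, and Emcn and Vwf are the 2 genes called in TdLN against NdLN.

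Glycam1 (ENSMUSG00000022491, chr15:103562759-103565081, minus strand, GRCm38) encodes a secreted sialomucin of HEVs that serves as a scaffold for these sugars. Its 5 Tumor libraries had 4.38, 1.86, 0.562, 0.0862 and 1.04 CPM. Its TdLN libraries had 1675, 1833, 2392, 2076 and 2136 CPM, and its NdLN libraries had 1181, 709, 2091, 1641 and 1646 CPM. Every node library was therefore far above every Tumor library, whereas the nodes overlapped with each other. The log2 fold change was -10.36 ± 0.75 in Tumor against TdLN (edgeR adjusted p = 1.69e-08) and -9.89 ± 0.74 in Tumor against NdLN (edgeR adjusted p = 1.93e-08). Between TdLN and NdLN it was 0.48 ± 0.50 (edgeR adjusted p = 0.674), with NdLN replicate 2 the lowest node library. The Tumor counts were few, from 3 to 107 per library, and the library with 3 was too low to meet the filter alone. Glycam1 was therefore tested through its node libraries, so a difference from Tumor was built into its being tested. Without Tumor replicate 1 the values were -11.13 against TdLN and -10.66 against NdLN, and limma voom gave -12.13 against TdLN and -11.67 against NdLN.

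Chst4 (ENSMUSG00000035930, chr8:110029153-110039740, minus strand) encodes the sulfotransferase that adds sulfate to these sugars in HEVs. In Tumor libraries it had 0, 0, 0, 1 and 1 counts. In TdLN libraries it was at 9.9, 2.16, 9.53, 2.62 and 1.33 CPM, and in NdLN libraries at 1.56, 2.2, 14.6, 10.0 and 1.44 CPM. Each node group thus held 2 libraries at 9.53 CPM or more and 3 at 2.62 CPM or less, and the nodes overlapped over their whole range. With 2 counts over all Tumor libraries against 882 over the TdLN libraries, the depth-scaled ratio of TdLN to Tumor was 401 (95% exact counting interval 111 to 3312). The same ratio of NdLN, with 999 counts, to Tumor was 445 (123 to 3677). The libraries were amplified and carry no molecular identifiers, so these intervals cover counting error only. Chst4 passed the filter on low counts through its node libraries, so a difference from Tumor was built into its being tested. TdLN against NdLN gave -0.22 ± 0.71 (edgeR adjusted p = 0.907).

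The 250 bases of reference sequence upstream of the Glycam1 and Chst4 starts are shown because no other members fell further in Tumor libraries. They are from RefSeq on GRCm38.p6 and run 5′ to 3′ on the strand of the gene, at chr15:103565082-103565331 and chr8:110039335-110039584. Capitals mark a match, on either strand, to TGACTCA, the AP-1 motif, which lies 59 bases before the Chst4 start as its reverse complement.
Glycam1: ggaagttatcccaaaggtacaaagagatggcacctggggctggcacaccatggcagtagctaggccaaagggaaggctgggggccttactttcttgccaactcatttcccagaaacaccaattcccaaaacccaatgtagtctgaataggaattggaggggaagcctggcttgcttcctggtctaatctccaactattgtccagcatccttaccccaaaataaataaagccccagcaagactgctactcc
Chst4: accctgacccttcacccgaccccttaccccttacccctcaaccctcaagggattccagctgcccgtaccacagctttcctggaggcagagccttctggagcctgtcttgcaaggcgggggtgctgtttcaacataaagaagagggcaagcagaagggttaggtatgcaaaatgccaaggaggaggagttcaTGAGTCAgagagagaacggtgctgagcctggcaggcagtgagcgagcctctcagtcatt
TGACTCA was found in 4.46% of 32851 promoter windows of the same length. No match to TGACATCA (an ATF and CREB type site of the human E-selectin promoter), to TATAAA or to the NF-kappaB consensus lay in either window. That consensus was searched as GGGRNNYYCC (R for A or G, Y for C or T, N for any base), with no mismatch allowed. Motifs may overlap each other, and a match describes letters only.

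Sele (ENSMUSG00000026582, chr1:164048234-164057677, plus strand) encodes E-selectin, the selectin that cytokines induce on endothelium. Tumor libraries had 0.778, 1.71, 5.76, 4.05 and 5.01 CPM. TdLN libraries had 34.7, 17.3, 41.7, 34.8 and 22.8 CPM, and NdLN libraries had 41.8, 53.5, 82.5, 60.9 and 75.5 CPM. The Tumor libraries lay below all node libraries. The TdLN libraries lay below all NdLN libraries, but only by 41.7 against 41.8 CPM, and with library totals alone as the scale the highest TdLN library was at 42.8 and the lowest NdLN library at 39.8 CPM. Log2 fold changes were -3.12 ± 0.44 in Tumor against TdLN (edgeR adjusted p = 1.9e-05) and -4.17 ± 0.46 in Tumor against NdLN (edgeR adjusted p = 1.22e-06). TdLN against NdLN gave -1.05 ± 0.40 (edgeR adjusted p = 0.185), which was not called.

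Selp (ENSMUSG00000026580, chr1:164115264-164150026, plus strand) encodes P-selectin, which endothelium and platelets release from storage granules to their surface. It was at 6.63, 2.78, 12.6, 4.97 and 5.13 CPM in Tumor libraries. It was at 33.7, 23.9, 32.8, 20.5 and 18.9 CPM in TdLN libraries, and at 29.9, 35.5, 30.0, 54.2 and 44.6 CPM in NdLN libraries. Tumor libraries were again below all node libraries, and the nodes overlapped. Log2 fold changes were -2.01 ± 0.34 in Tumor against TdLN (edgeR adjusted p = 9.74e-05), -2.60 ± 0.34 in Tumor against NdLN (edgeR adjusted p = 8.3e-06) and -0.58 ± 0.32 in TdLN against NdLN (edgeR adjusted p = 0.376). Selp overlaps the antisense genes Gm16548 and Gm16587 in GENCODE M21, and 11.1% of its windows of 50 bases also lie in one of them. The kit does not mark strand, so reads of Selp and of these partners cannot be told apart.

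Sele and Selp lie on the same strand of chromosome 1. Selplg, the gene of the leukocyte ligand of P-selectin, was not called in any comparison (log2 fold change 1.43 ± 0.67 in Tumor against TdLN, edgeR adjusted p = 0.0769).

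The promoter of Sele is shown because it held matches to 3 of the 4 motifs searched. It lies at chr1:164047984-164048233 on GRCm38.p6, from RefSeq, and capitals mark, from left to right, TGACATCA at 176, TGACTCA at 73 and TATAAA at 49 bases before the start.
Sele: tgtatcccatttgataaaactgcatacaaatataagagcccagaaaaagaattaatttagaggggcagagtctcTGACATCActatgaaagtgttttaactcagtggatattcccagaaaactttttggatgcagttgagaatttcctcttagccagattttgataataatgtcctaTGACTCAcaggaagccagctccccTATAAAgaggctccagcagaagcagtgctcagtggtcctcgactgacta
TGACATCA was present in 2.93% and TATAAA in 12.4% of the 32851 promoter windows. The exact NF-kappaB consensus had no match here, and 7.25% of windows held one. Sequences that depart from this pattern were not searched, so the lack of a match does not show that the promoter lacks NF-kappaB sites. Among the other members with a RefSeq promoter entry, Ly6c1 had a TATAAA match 143 bases before the start in 1 of its 2 windows, while Emcn and Selp had none of the motifs. Vwf had no entry.

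Emcn (ENSMUSG00000054690, chr3:137341067-137432185, plus strand) encodes endomucin, a sialomucin of capillary and venous endothelium. Tumor libraries had 35.7, 26.1, 41.2, 18.2 and 17.0 CPM. TdLN libraries had 37.8, 62.5, 67.6, 58.5 and 55.0 CPM, and NdLN libraries had 144, 156, 115, 133 and 106 CPM. The groups formed 3 steps, with NdLN above all other libraries and a single overlap between Tumor replicate 3 and TdLN replicate 1. The log2 fold change was -1.03 ± 0.23 in Tumor against TdLN (edgeR adjusted p = 0.00138) and -2.24 ± 0.24 in Tumor against NdLN (edgeR adjusted p = 1.03e-06). TdLN was below NdLN by -1.22 ± 0.23 (edgeR adjusted p = 0.01), lower in 5 of 5 TdLN libraries than in any NdLN library.

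Vwf (ENSMUSG00000001930, chr6:125546774-125686679, plus strand) encodes von Willebrand factor, the platelet-binding protein of Weibel-Palade bodies. It was at 7.21, 16.5, 19.4, 13.4 and 22.8 CPM in Tumor libraries. It was at 10.8, 19.3, 14.7, 14.5 and 12.5 CPM in TdLN libraries, and at 25.1, 51.4, 43.5, 46.2 and 28.0 CPM in NdLN libraries. The Tumor libraries spanned the whole TdLN range, and both groups lay below all NdLN libraries. Log2 fold changes were 0.15 ± 0.28 in Tumor against TdLN (edgeR adjusted p = 0.672), -1.29 ± 0.28 in Tumor against NdLN (edgeR adjusted p = 0.000897) and -1.44 ± 0.28 in TdLN against NdLN (edgeR adjusted p = 0.0118). Without Tumor replicate 5 the value in Tumor against TdLN was -0.02.

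Ly6c1 (ENSMUSG00000079018, chr15:75044018-75048830, minus strand) encodes a membrane-anchored protein found in the mouse on blood endothelium and some leukocytes. It was at 55.1, 63.6, 59.6, 24.5 and 146 CPM in Tumor libraries. It was at 11, 14.9, 14.1, 16.5 and 5.28 CPM in TdLN libraries, and at 17.2, 20.7, 41.3, 37.5 and 43.6 CPM in NdLN libraries. It was the only one of the 7 genes called as higher in Tumor, and its TdLN libraries were below all others. Log2 fold changes were 2.49 ± 0.44 in Tumor against TdLN (edgeR adjusted p = 0.000148) and 1.12 ± 0.42 in Tumor against NdLN (edgeR adjusted p = 0.0271). The call against NdLN was lost without Tumor replicate 5 (0.66, edgeR adjusted p = 0.123), without NdLN replicate 1 (0.96, 0.0663) and without NdLN replicate 2 (0.99, 0.064). TdLN against NdLN gave -1.38 ± 0.42 (edgeR adjusted p = 0.095), which was not called although the groups did not overlap. Markers of myeloid cells, in the mouse another source of Ly6c1, took 0.0112 to 0.0244% of counts in Tumor, 0.00125 to 0.00466% in TdLN and 0.00085 to 0.00321% in NdLN libraries. Of the 10 of 13 that passed the filter, 9 rose in Tumor against TdLN and 8 in Tumor against NdLN, beside 31.9% and 34% of all genes. These markers thus moved with Ly6c1 there, while S100a9 had 0 counts in Tumor and Ly6g 0 in both nodes. Markers of fibroblasts and reticular cells took 0.152, 0.746, 0.479, 0.3 and 1.1% of counts in the 5 Tumor libraries, against 0.0919 to 0.177% in TdLN and 0.112 to 0.232% in NdLN libraries. Of these 12 markers 8 rose and 2 fell in Tumor against TdLN (median log2 fold change 4.01), and 7 rose and 3 fell in Tumor against NdLN (median 3.29). Beside this, 31.9% of all genes rose and 30.1% fell against TdLN, and 34% rose and 32.5% fell against NdLN. The share of these 12 markers was highest in Tumor replicate 5, the library with the highest Ly6c1 level, and lowest in Tumor replicate 1. Ly6c1 was lowest in Tumor replicate 4. The share of the myeloid markers was highest in Tumor replicate 1, at 0.0244%, and was 0.0148% in Tumor replicate 5. The part of either list in the rise of Ly6c1 was not tested.

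The count of Ly6c1 is less certain than those of the other members because of its close copy Ly6c2. The first 50 coding bases of both genes, from GENCODE M21 on GRCm38, show where a read can tell them apart, with the 5 differing bases in capitals.
Ly6c1: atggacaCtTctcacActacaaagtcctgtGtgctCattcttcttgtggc
Ly6c2: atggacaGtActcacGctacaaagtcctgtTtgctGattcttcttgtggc
Over 393 coding bases the genes differed at 9 positions, the longest identical run was 188 bases, and 162 of 344 windows of 50 bases were the same in both. Of all windows in Ly6c1 transcripts, 32.8% also occurred in another gene, while Glycam1, Emcn, Sele and Chst4 had 0 such windows and Vwf 0.947%. Ly6c2 itself was at 0.427 ± 0.364 CPM in Tumor, 0.145 ± 0.16 in TdLN and 0.56 ± 0.38 in NdLN libraries and was not called in any comparison. How the authors' counting treated reads that match both copies is not given in the sources used here.

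The same genes were also read by whether the libraries of 2 groups overlapped. In Tumor against TdLN, 4 members lay lower without overlap, beside 22.5% of all genes, and Ly6c1 lay higher without overlap (24.1%). In Tumor against NdLN 6 lay lower without overlap, beside 27% of all genes. Glycam1 and Chst4, tested through their node libraries, were among these in both Tumor comparisons. In TdLN against NdLN, 4 lay lower without overlap, namely Emcn, Vwf, Sele and Ly6c1 (4.95% of all genes). Emcn and Vwf passed edgeR's test in that comparison, and Sele and Ly6c1 did not.

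Levels of different genes were compared per kilobase of exon, with the exons of all annotated transcripts of a gene merged. This length was 2133 bases for Glycam1 and 16064 for Vwf, and the order of genes with close values depends on it. In Tumor libraries Ly6c1 stood first at 41.5 CPM per kilobase, then Emcn at 5.11, and neither overlapped its next neighbour. Selp, Sele, Vwf and Glycam1 followed, from 1.46 to 0.744 CPM per kilobase, with overlap between neighbours among these genes. Chst4 was last at 0.00506 and did not overlap Glycam1. In TdLN libraries Glycam1 was first at 948 CPM per kilobase, followed by Emcn and Sele (both 10.4), Ly6c1 at 7.37, Selp at 5.88, Chst4 at 2.24 and Vwf at 0.893, and each gene after Glycam1 overlapped the next. In NdLN libraries the order was the same, with Glycam1 at 681, Emcn at 24.2, Sele at 21.6, Ly6c1 at 19.1, Selp at 8.81, Chst4 at 2.61 and Vwf at 2.42. There Glycam1 and Emcn did not overlap, nor did Selp and Chst4, and the other neighbours did.

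The 7 genes together took 0.0133% ± 0.00502 of counts in Tumor, 0.214% ± 0.0323 in TdLN and 0.168% ± 0.0529 in NdLN libraries (SD, n = 5). Tumor differed by -0.201 percentage points from TdLN and by -0.155 from NdLN (exact permutation p = 0.00794 for each, the smallest that 5 against 5 libraries allow; adjusted p = 0.0119 over 6 such tests). TdLN and NdLN differed by 0.046 percentage points (two-sided exact permutation p = 0.159, adjusted p = 0.19). Glycam1 made up most of the node sums. Without it the other 6 genes took 0.0131% ± 0.00503 in Tumor, 0.0143% ± 0.0026 in TdLN and 0.0294% ± 0.0031 in NdLN libraries. On that sum Tumor and TdLN differed by -0.00118 percentage points (exact permutation p = 0.667), while TdLN was below NdLN by -0.0151 and Tumor below NdLN by -0.0163 (exact permutation p = 0.00794 and adjusted p = 0.0119 for both). Ly6c1, called as higher in Tumor against TdLN, gave 11763 counts over the Tumor and 2128 over the TdLN libraries. Emcn, Selp, Sele and Chst4 were called as lower there, so changes in both directions entered this sum.

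Within a node library, the ratio of 2 genes does not depend on the scaling factor. Relative to Glycam1, 5 of the other 6 genes were lower in TdLN than in NdLN, with differences in mean log2 ratio of -1.79 for Emcn, -1.96 for Vwf, -1.64 for Sele and -1.93 for Ly6c1 (exact permutation p = 0.00794, adjusted p = 0.0172 for each, over 13 ratios tested). Selp differed by -1.14 (exact permutation adjusted p = 0.0295). Chst4, the other HEV gene, differed from Glycam1 by -0.56 (exact permutation adjusted p = 0.533), inside the spread between libraries. Relative to Cdh5, the gene of the endothelial junction protein VE-cadherin, Emcn differed by -0.97 and Vwf by -1.14 (exact permutation adjusted p = 0.0172 for each). On that base Glycam1 differed by 0.82 (exact permutation adjusted p = 0.0387), and Ly6c1 (-1.11, adjusted p = 0.0573) and Sele (-0.82, adjusted p = 0.0619) missed the threshold in the same exact test. Also relative to Cdh5, Selp differed by -0.32 (exact permutation adjusted p = 0.263) and Chst4 by 0.26 (exact permutation adjusted p = 0.714). A ratio shows that 2 genes changed unequally and does not show which of them changed. The ratios to Glycam1 share that denominator, as those to Cdh5 share theirs, so they are not independent results.

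Among the 7 members, the node libraries of 1 group differed most in Chst4. Its highest library exceeded its lowest 7.45-fold in TdLN and 10.1-fold in NdLN, against 1.43-fold in TdLN and 2.95-fold in NdLN for Glycam1 and 1.79-fold in TdLN and 1.47-fold in NdLN for Emcn. The gene whose log2 CPM followed Chst4 most closely over the 10 node libraries, after group means were taken out, was Fut7 (Pearson r = 0.953, Spearman rho = 0.903, and r = 0.92 without the 2 libraries farthest from the median). Fut7 encodes a fucosyltransferase that completes the sugars of HEVs. It was at 11.7, 4.14, 9.27, 7.01 and 3.35 CPM in TdLN libraries and at 4.75, 5.24, 18.2, 18.4 and 6.32 CPM in NdLN libraries, and in Tumor libraries it was at 0, 0.157, 0, 0.661 and 0 CPM. Like Chst4 it was high in TdLN replicates 1 and 3 and in NdLN replicates 3 and 4. Glycam1 did not follow these genes, with r = 0.41 to Chst4 and 0.51 to Fut7 (ranks 2017 and 1451 of 11510 genes). Among other HEV genes, r to Chst4 was 0.71 for Ackr1, 0.24 for Madcam1, 0.19 for Enpp2 and -0.08 for Chst2. Of other vessel genes, Cdh5 had r = -0.13 and Plvap r = -0.71 to Chst4.

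**Figure D3:**
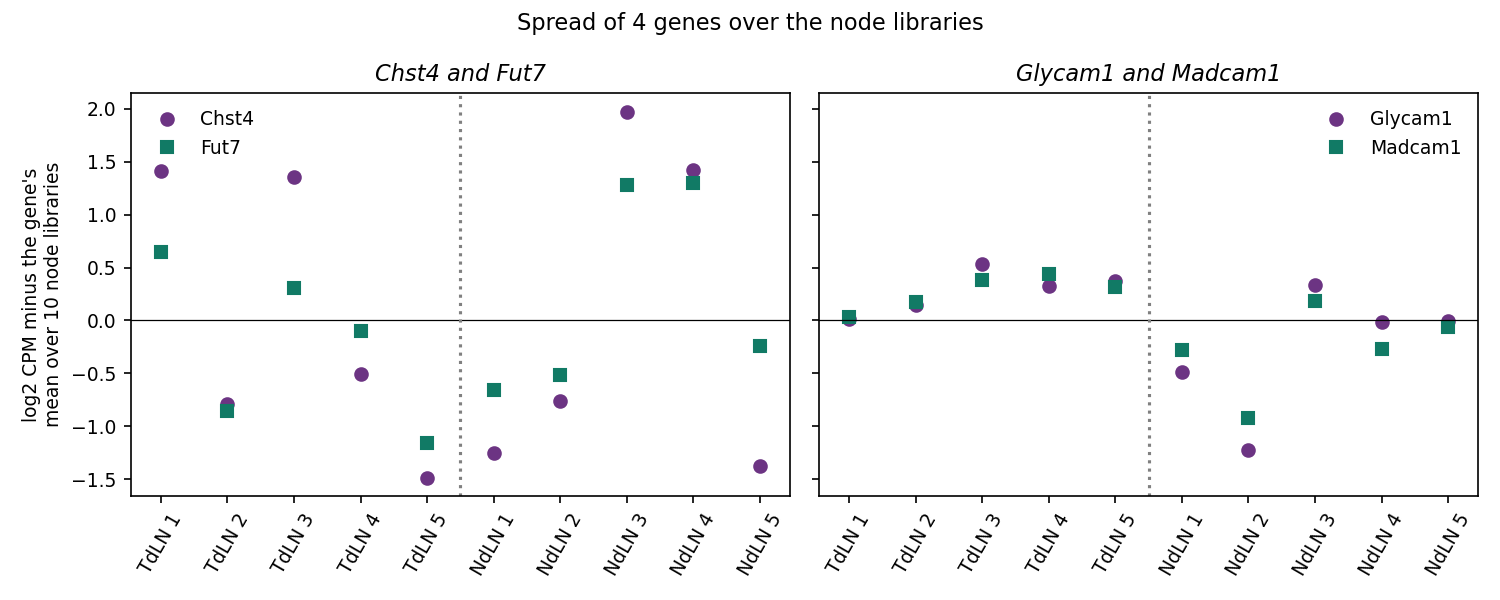
Log2 CPM of Chst4 and Fut7 (left) and of Glycam1 and Madcam1 (right) in each node library, minus the gene's mean over the 10 node libraries; the dotted line separates the 5 TdLN from the 5 NdLN libraries. Chst4 and Fut7 are high in the same 4 libraries, and Glycam1 and Madcam1 are lowest in NdLN replicate 2.

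Glycam1 was instead closest to Bst1 (Pearson r = 0.974, Spearman rho = 0.939), Cfb (0.968, 0.891) and Il4i1 (0.966, 0.915), with r from 0.89 to 0.93 for these without the 2 farthest libraries. Bst1 encodes a surface enzyme of NAD metabolism, Cfb complement factor B and Il4i1 a secreted amino acid oxidase. Madcam1, the gene of the mucosal addressin, ranked 10 with r = 0.95. Sele was closest to Selenoi (0.984, 0.915) and to Ptgs2 (0.961, 0.988), the gene of the inducible cyclooxygenase. Selp was closest to F5 (0.957, 0.855), the gene of coagulation factor V, which starts 1811 bases downstream of Selp on the same strand. Whether reads past the end of Selp were counted for F5 was not tested. Emcn was closest to Ttll1 (0.972, 0.915), Vwf to Jmjd4 (0.954, 0.952) and Ly6c1 to C1qtnf9 (0.942, 0.697). Among the members themselves r ran no higher than 0.62, for Sele and Chst4, and Emcn and Vwf had r = 0.50. These are descriptions over 10 libraries that share their sort, amplification and depth range, chosen as the highest of 11510 genes.

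Most genes that build or carry the sugars of HEVs fell in Tumor libraries, and 1 was called between the nodes. Of the 22 genes on this list, which includes Glycam1, Chst4 and Emcn, 14 fell and 4 rose in Tumor against TdLN (median log2 fold change -0.98, beside 0.04 over all genes). The same numbers fell and rose in Tumor against NdLN (median -1.12). Over all genes tested, 30.1% fell and 31.9% rose against TdLN, and 32.5% fell and 34% rose against NdLN. In TdLN against NdLN, Emcn alone was called, beside 3.49% of all genes, and the median was -0.03. Madcam1 was at 1.69 ± 1.16 CPM in Tumor, 959 ± 108 in TdLN and 677 ± 175 in NdLN libraries and fell by 9.18 ± 0.45 on the log2 scale in Tumor against TdLN (edgeR adjusted p = 2.38e-10). Cd300lg, the gene of a mucin-like receptor of blood endothelium, was at 9.97 ± 4.71 CPM in Tumor, 227 ± 68.7 in TdLN and 450 ± 93.6 in NdLN libraries, and its change in Tumor against TdLN was -4.51 ± 0.33 (edgeR adjusted p = 2.08e-08). Gcnt1, which branches the sugar chain, changed by -2.92 ± 0.21 (edgeR adjusted p = 1.73e-08). Fut7, with 0, 6, 0, 23 and 0 counts in Tumor libraries, passed the filter through its node libraries, as Chst4 and Glycam1 did. The fall of these genes was thus built into their being tested. Cd34, another sialomucin of blood vessels, went the other way, at 188 ± 47.5 CPM in Tumor, 61.9 ± 17.2 in TdLN and 67.8 ± 16.8 in NdLN libraries (1.60 ± 0.22 against TdLN, edgeR adjusted p = 1.74e-05).

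Among 20 further HEV and venule genes, which include Selp, Sele and Vwf, 15 fell and 1 rose in Tumor against each node. The medians were -1.81 against TdLN and -1.92 against NdLN. Beside this, 30.1% of all genes tested fell and 31.9% rose against TdLN, and 32.5% fell and 34% rose against NdLN. In TdLN against NdLN, Lrg1, the gene of a secreted leucine-rich glycoprotein, rose by 0.88 ± 0.22 on the log2 scale (edgeR adjusted p = 0.0399), and Sphk1, which makes sphingosine-1-phosphate, fell by 0.47 ± 0.10 (edgeR adjusted p = 0.0221) beside Vwf. Ackr1, the atypical chemokine receptor that marks venules, was at 0.701 ± 0.433 CPM in Tumor, 13 ± 2.74 in TdLN and 20 ± 5.42 in NdLN libraries. It was lower in Tumor than in TdLN by -4.21 ± 0.35 (edgeR adjusted p = 7.93e-08), and TdLN against NdLN gave -0.62 ± 0.30 (edgeR adjusted p = 0.305).

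Weibel-Palade body cargo and machinery were covered by 27 genes, which include Vwf and Selp. In TdLN against NdLN 4 of the 27 were called, all lower (median -0.07), beside 1.64% of all genes called as lower. Besides Vwf these were Plat, the gene of tissue plasminogen activator, Edn1, the gene of endothelin-1, and Sytl2, which had 1 count over the TdLN and 44 over the NdLN libraries. Sytl2 passed the filter through its Tumor libraries, which had 675 to 2093 counts. Of its NdLN counts, 23 came from NdLN replicate 2. Plat was at 216 ± 48.6 CPM in Tumor, 231 ± 36.8 in TdLN and 473 ± 137 in NdLN libraries, and its change in TdLN against NdLN was -1.03 ± 0.20 (edgeR adjusted p = 0.0102). Edn1 was at 1.89 ± 0.467 CPM in Tumor, 76.5 ± 20.2 in TdLN and 138 ± 16.1 in NdLN libraries, with -0.85 ± 0.19 in TdLN against NdLN (edgeR adjusted p = 0.022). In Tumor against TdLN, 12 of the 27 fell and 8 rose (median -0.27), beside 30.1% lower and 31.9% higher over all genes tested. Angpt2, the gene of the stored ligand angiopoietin-2, was among those that rose (498 ± 137 CPM in Tumor, 148 ± 22.6 in TdLN and 202 ± 31.7 in NdLN libraries, 1.76 ± 0.19, edgeR adjusted p = 1.06e-06).

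Of 18 genes of the Ly6 family and the related Gpihbp1, 12 passed the filter on low counts, Ly6c1 among them. In Tumor against TdLN 3 of these rose and 7 fell, beside 31.9% higher and 30.1% lower over all genes tested. Ly6a, the gene of Sca-1, was at 241 ± 129 CPM in Tumor, 23.5 ± 7.38 in TdLN and 38.6 ± 17.6 in NdLN libraries, the same order of groups as for Ly6c1 (3.36 ± 0.41 in Tumor against TdLN, edgeR adjusted p = 4.58e-06). Part of the windows that Ly6c1 shares with other genes are shared with Ly6a, 195 of 1764. Ly6e fell by 2.25 ± 0.14 on the log2 scale (edgeR adjusted p = 4.23e-09). Ly6i, also called as lower, had 7, 7, 2, 2 and 11 counts in Tumor libraries and 30.9 ± 7.85 CPM in TdLN libraries, and passed the filter through the nodes. Gpihbp1, whose product carries lipoprotein lipase across capillary endothelium, was at 51.6 ± 19.4 CPM in Tumor, 18.5 ± 3.12 in TdLN and 56.8 ± 19.1 in NdLN libraries, and was the only gene of this list called in TdLN against NdLN (-1.62 ± 0.27, edgeR adjusted p = 0.00457).

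Markers of blood endothelium other than the 7 members, 28 genes in all, took 0.32 to 0.467% of counts in Tumor, 0.756 to 1.19% in TdLN and 0.829 to 1.3% in NdLN libraries. None of the 28 was at 0 in any group. In TdLN against NdLN, 4 were called, all lower (median -0.43), beside 1.64% of all genes called as lower. These were Sox7 (-1.07 ± 0.14, edgeR adjusted p = 0.00168), a transcription factor of blood endothelium, the VEGF receptor gene Flt1 (-1.81 ± 0.45, edgeR adjusted p = 0.0393), Tm4sf1 (-0.53 ± 0.13, edgeR adjusted p = 0.037) and Gpihbp1. Flt1 was at 7.6 ± 4.81 CPM in Tumor, 7.48 ± 2.72 in TdLN and 26.3 ± 12.5 in NdLN libraries, so that, as for Vwf, the NdLN mean was the highest and those of Tumor and TdLN lay close together. In Tumor against TdLN 16 of the 28 fell and 7 rose, beside 30.1% lower and 31.9% higher over all genes tested. In Tumor against NdLN 18 fell and 5 rose, beside 32.5% lower and 34% higher. Plvap, the gene of the diaphragm protein of fenestrated vessels, spread widely within the node groups, from 314 to 5097 CPM in TdLN and from 923 to 5003 CPM in NdLN libraries, and was not called between the nodes (0.41 ± 0.66, edgeR adjusted p = 0.798). Plvap, Flt1 and Ackr1 each had their highest TdLN level in TdLN replicate 4. In that library Plvap was at 5097, Tm4sf1 at 1473, Flt1 at 10.9 and Ackr1 at 16.4 CPM. The summed share of the list thus weighs its highest genes most, and which cells gave these counts was not tested.

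Markers of endothelium in general fell in all 12 cases in Tumor against each node (median -1.61 against TdLN and -1.81 against NdLN). Of all genes tested, 30.1% fell against TdLN and 32.5% against NdLN. In TdLN against NdLN edgeR called 0 of the 12, beside 3.49% of all genes. Of the 12, 3 had an unadjusted edgeR p under 0.05 there, and DESeq2 called 1 and voom 3. Cdh5 was at 182 ± 50.2 CPM in Tumor, 325 ± 34.3 in TdLN and 389 ± 28.9 in NdLN libraries. Pecam1, one of the sort markers, was at 276 ± 86.7 CPM in Tumor, 1179 ± 87.1 in TdLN and 1596 ± 84.7 in NdLN libraries. The 15 lymphatic markers took 0.443% ± 0.0544 of counts in Tumor, 1.07% ± 0.113 in TdLN and 1.11% ± 0.0818 in NdLN libraries. The summed shares of the blood, general and lymphatic endothelial lists were thus all lower in Tumor libraries, together with the members that fell there, and their part in that fall was not tested.

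Selp, Vwf and F5 are also genes of platelets and megakaryocytes. The 14 markers of those cells took 0.00441 to 0.0113% of counts in Tumor, 0.0116 to 0.0178% in TdLN and 0.011 to 0.0155% in NdLN libraries, and 9 of them passed the filter. Gp6 had 0 counts in all 3 groups, Ppbp had 0 in TdLN, and Gp1bb and Tubb1 had 0 in NdLN. Pf4, the gene of a chemokine of platelet granules, was at 9.66 ± 2.43 CPM in Tumor, 39.4 ± 8.47 in TdLN and 38.2 ± 12.9 in NdLN libraries. In TdLN against NdLN 0 of the 9 were called by edgeR, DESeq2 or voom, and 0 had an unadjusted edgeR p under 0.05. Pf4 gave 0.04 ± 0.24 there. Of all 14 markers, 9 had a mean under 1 CPM in TdLN and 9 in NdLN libraries. The part of platelets in the counts of Selp, Vwf and F5 was not tested. The 12 markers of T and B cells took 0.00237 to 0.00365% of counts in Tumor, 0.00529 to 0.00892% in TdLN and 0.00439 to 0.00939% in NdLN libraries. Their median log2 fold change in TdLN against NdLN was -1.82, beside -0.01 over all genes, with 1 called as higher and 0 as lower. Of the 12, 7 had a mean under 1 CPM in TdLN and 2 in NdLN libraries. The part of lymphocyte RNA in the differences of the members between the nodes was not tested.

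**Figure D4:**
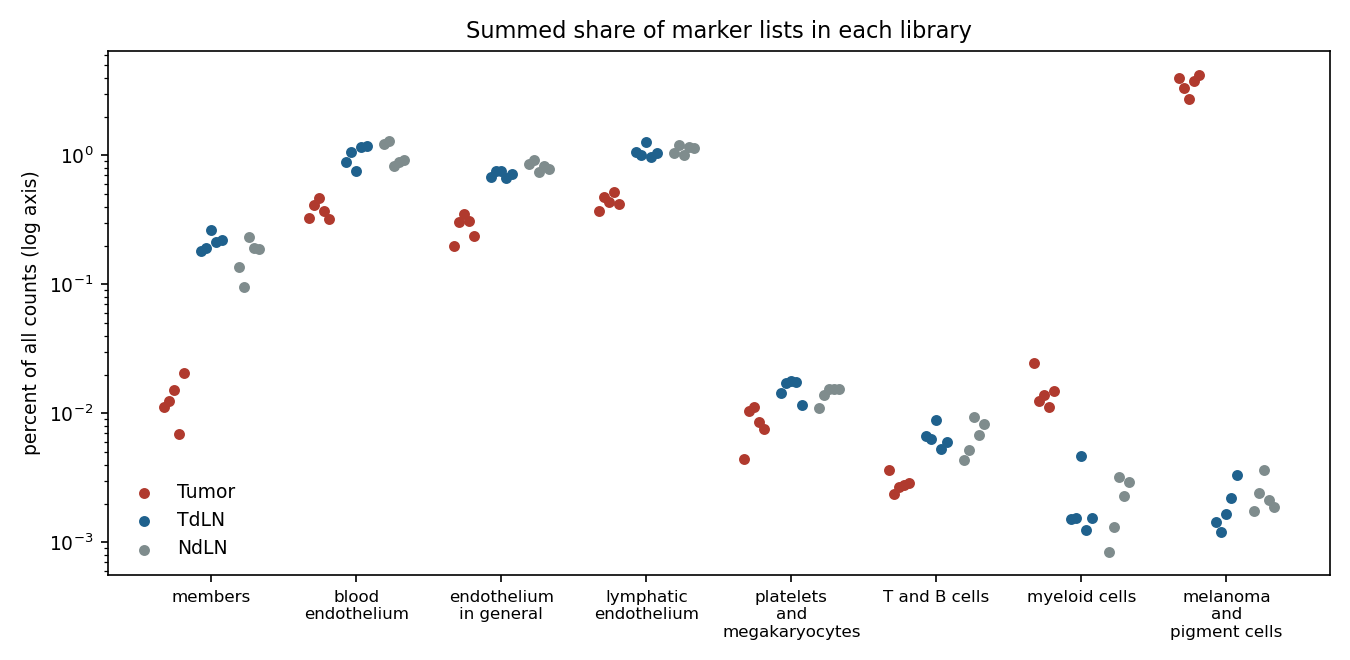
Summed share of all counts, in percent on a log axis, of the 7 members and of 7 lists of cell type markers in each library of Tumor, TdLN and NdLN (5 libraries each). The members' share is lower in every Tumor library than in any node library, at 0.00692 to 0.0205% against 0.0948 to 0.264%, as are the shares of the 3 endothelial lists, while pigment cell markers run the other way.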

How the data were processed

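The authors deposited raw counts per gene, whole numbers without normalization, for 21839 genes in 15 libraries. Per the labels' protocols, 1 ng of RNA was amplified with a low-input kit and read as single reads of 50 bases in pools of 10 libraries. The submitters' processing notes name the build GRCm38 and the tools STAR 2.4, featureCounts 1.4.6 and CASAVA 1.8.2. The pool of each library is not given in the sources used here, nor are the annotation release and the strand setting. Pool effects were not tested. Gene IDs were matched to GENCODE M21 (21628 of 21839).

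Tests on the counts used edgeR 4.0.16 (R 4.3.3) (TMM, filterByExpr, 13887 genes, robust glmQLFit and glmQLFTest) in 1 fit of 15 libraries, with Benjamini-Hochberg adjustment over all genes tested and calls at an adjusted p under 0.05. CPM are counts scaled by total and TMM factor. Shares and ratios (count plus 1) were tested by two-sided exact permutation over libraries. The edgeR step was tested on simulated data. Alternatives were other scaling factors, no filter, a stricter filter, DESeq2 1.42.0, limma 3.58.1 voom, a fit without the group not compared, a replicate block and each library left out in turn.

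Within a group, libraries differed by far more than sampling noise, so none was counted as a duplicate. The members, the gene lists and the tests were chosen with earlier results of these data known. Named were all 7 members, Ly6c2, the sort checks and, by rule, up to 5 called genes with the smallest adjusted p of each list, of which the text gives part. Selplg, Plvap, Angpt2, Fut7, Cd34, Enpp2 and Chst2 as list genes, Gp6, Ppbp, Gp1bb, Tubb1, S100a9 and Ly6g were chosen after their values were seen. Motifs were searched on both strands in RefSeq promoter windows. One gene of the lists is not reported here.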

Additional observations from a re-analysis of the deposited data

How the results depend on the processing

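Of the single-gene values under the alternatives, 383 kept their direction and their side of the threshold, 4 passed it newly, 5 lost it and 4 changed sign. Emcn and Vwf were called in TdLN against NdLN under all 19 settings, with adjusted p up to 0.0311 and 0.0407. No scaling alternative changed the direction of a member. With library totals alone the median log2 fold change of all genes was 0.15 in Tumor against TdLN, 0.20 in Tumor against NdLN and 0.05 in TdLN against NdLN.

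The sign changes were those of Vwf in Tumor against TdLN without Tumor replicate 5 (-0.02, from a range of -0.02 to 0.33 with 1 library left out) and of Chst4 in TdLN against NdLN without NdLN replicate 3 (0.43), NdLN replicate 4 (0.05) or TdLN replicate 5 (0.03, range -0.61 to 0.43), and neither gene was called there in any setting. Ly6c1 in Tumor against NdLN was not called by voom (0.65, adjusted p = 0.158). In a fit of only TdLN and NdLN libraries 4 members were called in place of 2, with Sele (adjusted p = 0.0452) and Ly6c1 (0.0482) added. Voom also called Sele (0.00795) and DESeq2 Ly6c1 (0.0188).

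The number of genes called in TdLN against NdLN, 484 in the main analysis, was 978 with DESeq2, 818 with voom, and 225 to 564 with 1 library left out. Without Glycam1 the summed share differed by -0.00118 percentage points in Tumor against TdLN, the same direction but no longer past the threshold, and by -0.0151 in TdLN against NdLN, the reverse of the 0.046 with it. Leaving out 1 library kept the number of ratios to Glycam1 past the threshold at 4 to 5, and 3 passed with Cdh5 as denominator. The cause of these changes was not tested.

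Same-numbered libraries did not deviate together (correlations of -0.21 to 0.248, own number best in 1, 2 and 0 of 5). The labels do not say whether they came from the same animal, and weak correlations cannot settle it. With the replicate block, Ly6c1 in Tumor against NdLN was 1.09 (adjusted p = 0.0536), the summed shares were -0.201 and -0.155 (adjusted p = 0.075) and 0 ratios passed. The sign-flip test of 5 pairs cannot give less than 0.0625. Chst4 had no value under the stricter filter, which removed it. Depth limits the Tumor values of Chst4, Fut7 and Glycam1 most.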
